A study of Macaca mulatta with 4 samples.

Results

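The genes described here encode proteins and a lipid enzyme of the myelin sheath: MBP, MOG, MAG, MOBP, CNP, MAL, CLDN11, OPALIN and UGT8. They were taken as the rows of the deposited count table whose Ensembl macaque gene ID is paired with one of these 9 symbols. Of the symbols, 8 were matched, to 9 of the 35395 gene IDs, because MOBP is paired with 2 IDs. MAG was not matched to an ID and is not analysed here. All 9 rows passed the filter on low counts that left 15417 genes for testing.

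The RNA came from the amygdala of wild-type infant rhesus macaques (Macaca mulatta) and was sequenced in 4 libraries, with 1 female and 1 male in each of 2 groups. The sevoflurane group inhaled about 2.5 to 3% sevoflurane, a volatile general anaesthetic, in 3 sessions of 4 hours, near postnatal days 7, 21 and 35. The amygdala was collected directly after the last session. The other group carries the treatment label control; the gas these animals breathed and their age at collection are not stated in the labels. The labels do not say which part of the amygdala was cut or whether white matter was trimmed.

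Myelin is the membrane that oligodendrocytes wrap around axons in the central nervous system. In compact myelin the cytoplasmic faces of the membrane are zipped together by MBP, while CNP, a protein of the cytoplasmic channels, holds some of that space open. At the edges of each sheath the layers end in paranodal loops, which attach to the axon beside the node of Ranvier. Myelination of the primate forebrain goes on long after birth, and fibre tracts hold more of it than grey matter.

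Reads on genes ranged from 12477047 to 16293371 per library. Levels are CPM, the reads on a gene per 1000000 reads of its library, scaled by TMM, a method that sets libraries to a common scale. The control male library stood apart in markers of the choroid plexus, the tissue in the brain's ventricles that secretes cerebrospinal fluid. The 11 matched choroid plexus genes summed to 19711 CPM there, against 56.4 CPM (control female), 38.8 (sevoflurane female) and 11.5 (sevoflurane male). TTR, the transthyretin gene, made up 17580 CPM of that sum. The 7 matched ependymal genes summed to 258 CPM in the control male and to 38.5 to 44.6 CPM in the other 3 libraries. Transcription factors and peptides expressed in the amygdala, a list of 12 genes led by LMO3, had reads in every library, except FOXP2. FOXP2 was at 0 in the control male. The list summed to 755 CPM (control female), 988 (control male), 717 (sevoflurane female) and 1633 (sevoflurane male). The sevoflurane male thus stood highest in these genes. Whether the part of the amygdala sampled differed between libraries was not tested.

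Summed myelin RNA was 4.47-fold higher in the male than in the female control animal, and nearly equal in the sevoflurane animals (ratio 1.04). The 9 rows together took 0.102% of reads in the female control (95% exact binomial interval 0.101 to 0.104%) and 0.438% in the male control (0.434 to 0.442%). After sevoflurane they took 0.220% in the female (0.218 to 0.223%) and 0.224% in the male (0.222 to 0.227%). These intervals, and the others given for a single library, cover counting error only. In CPM the sums were 1086 (control female), 4856 (control male), 2009 (sevoflurane female) and 2096 (sevoflurane male). The 2 sevoflurane libraries therefore lay between the controls and close to each other. The group means were 2971 ± 2666 CPM in controls and 2053 ± 61.3 CPM after sevoflurane (SD, n = 2), a difference smaller than the spread of the controls. With 2 libraries against 2, an exact two-sided permutation test cannot give a p below 0.333, so none was run on this sum. In such bulk tissue, differences in oligodendrocyte number, in myelin RNA per oligodendrocyte and in the white matter included cannot be told apart.

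**Figure D1:**
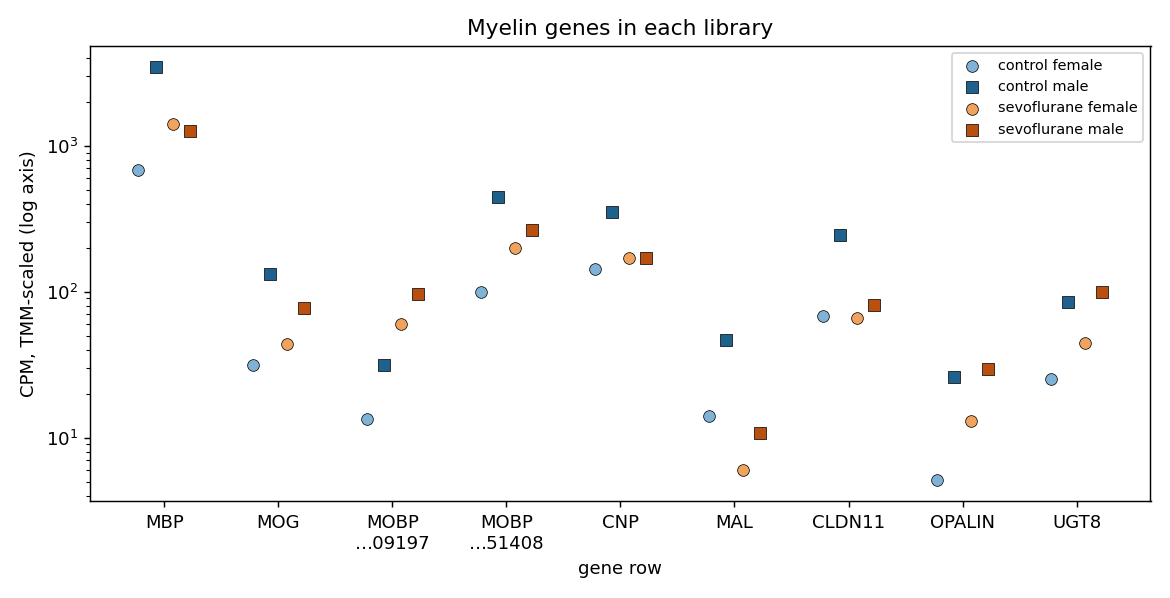
TMM-scaled CPM (log axis) of the 9 myelin gene rows, with 1 point per library; circles are females and squares males, blue controls and orange sevoflurane. The control female library is the lowest point for 7 of the 9 rows and the control male the highest for 6.

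MBP, the myelin basic protein that joins the inner membrane faces of compact myelin, supplied most of the myelin reads. In controls it took 63.1% of the reads on these rows in the female (95% exact binomial interval 62.4 to 63.9%) and 71.9% in the male (71.5 to 72.3%). After sevoflurane it took 69.9% in the female (69.4 to 70.4%) and 60.4% in the male (59.9 to 61.0%). Its level was 686 CPM (control female), 3492 (control male), 1404 (sevoflurane female) and 1267 (sevoflurane male). Both sevoflurane animals thus sat between the controls. Without MBP the summed level was 400.4, 1364, 605 and 829 CPM in the same order of libraries. The control male was again highest and the control female lowest.

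MOBP, the myelin-associated oligodendrocyte basic protein, is another small basic protein of compact myelin, and its 2 gene IDs behaved differently. ENSMMUG00000051408, the more abundant, had 100.1 CPM (control female), 447 (control male), 201 (sevoflurane female) and 265 (sevoflurane male). Its groups overlapped, with the sevoflurane animals inside the range of the controls. ENSMMUG00000009197 stood at 13.5, 31.7, 60.4 and 96.0 CPM in that order, so that both sevoflurane libraries were above both controls. Of the reads on the 2 IDs together, this ID took 11.9% in the female and 6.63% in the male control, and 23.1% in the female and 26.6% in the male after sevoflurane. Neither the part of MOBP that each ID covers nor the way shared reads were counted is stated in the sources used here, so the split between them is uncertain.

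MAL, a proteolipid of lipid-rich membrane domains that is found in compact myelin and in some epithelia, was the only row with each sevoflurane library below both controls. Its level was 14.2 CPM (control female), 46.4 (control male), 6.01 (sevoflurane female) and 10.8 (sevoflurane male). The male was above the female within each group. MOG, an immunoglobulin-domain protein on the outermost layer of the sheath, stood at 31.5, 133, 44.2 and 77.5 CPM in the same order of libraries. Here the sevoflurane animals again lay within the range of the controls.

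CNP, an enzyme of the non-compact, cytoplasm-filled myelin compartment, had 142.9 CPM (control female), 352 (control male), 169.95 (sevoflurane female) and 169.2 (sevoflurane male). The sevoflurane pair was nearly equal, with a male over female ratio of 0.995 (95% counting interval 0.942 to 1.05). CLDN11, the claudin that forms the tight junctions running through the sheath, had 68.2 CPM (control female), 244 (control male), 65.8 (sevoflurane female) and 81.3 (sevoflurane male). Its 3 lower libraries lay within 1.24-fold of each other.

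OPALIN, an oligodendrocyte membrane protein enriched in the paranodal loops, had the fewest reads in the control female, where 78 were counted. Its level was 5.09 CPM there, 26.1 in the male control, and 13.0 (female) and 29.7 (male) after sevoflurane. UGT8, the enzyme that makes galactosylceramide, a main lipid of myelin, stood at 25.0, 84.7, 44.7 and 100.1 CPM in that order. For OPALIN and UGT8 the males were higher than the females in each group, and the sevoflurane male was highest.

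The main comparison asked which of these genes differed in the amygdala after repeated sevoflurane. Of the 9 rows 1 was called higher and 0 lower, at a Benjamini-Hochberg adjusted p under 0.05 by edgeR's quasi-likelihood test, which called 40.7% of all tested genes, 21.3% higher and 19.4% lower. Of those calls 52.3% were higher, or 63.3% with library totals in place of TMM. At an unadjusted p under 0.05 edgeR had 1 row higher and 1 lower, and DESeq2 called 1 lower. The median log2 fold change of the rows was −0.43, beside 0.0040 for all tested genes. Point estimates were below 0 for 6 rows and above 0 for 3. MOBP ENSMMUG00000051408, among the 6 below 0, was above 0 with library totals (0.017), with sex as a block (0.12) and without the control male (1.19), where MBP, MOG, CNP and CLDN11 were above 0 as well. The median depended on the control male library: it was 0.93 without that library and −1.03 with the control female left out.

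The called row was MOBP ENSMMUG00000009197, which rose from 22.6 ± 12.9 to 78.2 ± 25.2 CPM (SD, n = 2), a log2 fold change of 1.79 ± 0.47 SE (edgeR adjusted p = 0.0260, higher in both sexes). The call was lost without the sevoflurane male library (1.43, edgeR adjusted p = 0.114), and the log2 fold change was 2.51 with the control male left out and 1.33 without the female one. With the reads of both MOBP IDs summed, a choice made after seeing the data, MOBP went from 296 ± 258 to 311 ± 70.4 CPM (log2 fold change 0.07 ± 0.62, edgeR adjusted p = 0.936), and no row was called higher.

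MAL missed the threshold by little, with 30.3 ± 22.8 CPM in controls and 8.40 ± 3.37 after sevoflurane (SD, n = 2; log2 fold change −1.85 ± 0.62 SE, edgeR adjusted p = 0.0553, lower in both sexes). It was called lower when sex was added to the edgeR fit as a block (−1.68, adjusted p = 0.00272). The same call came with no filter on low counts (edgeR adjusted p = 0.000213), with a filter at 5 CPM (0.0468) and by DESeq2 (adjusted p = 0.0109). The call was not made by edgeR with library totals (−1.60, adjusted p = 0.0785) or with DESeq2's size factors (−1.84, adjusted p = 0.0564). With a control left out, the log2 fold change of MAL was −2.44 (female removed) or −0.78 (male removed). With a sevoflurane library left out, the value was −1.47 (female removed) or −2.32 (male removed). The groups did not overlap for MAL and for MOBP ENSMMUG00000009197, 2 of 9 rows, which was the case for 75.0% of all tested genes.

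The other 7 rows were not called. MBP was at −0.65 ± 0.68, MOG at −0.43 ± 0.65, MOBP ENSMMUG00000051408 at −0.23 ± 0.63 and CNP at −0.54 ± 0.43. CLDN11 was at −1.08 ± 0.56 (edgeR adjusted p = 0.165), OPALIN at 0.46 ± 0.77 and UGT8 at 0.40 ± 0.62. Removing a control animal changed several of these values: without the control female, MBP (−1.36, edgeR adjusted p = 0.0130) and CLDN11 (−1.71, adjusted p = 0.00429) were called lower, and without the control male, OPALIN (2.04, edgeR adjusted p = 0.0250) was called higher.

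**Figure D2:**
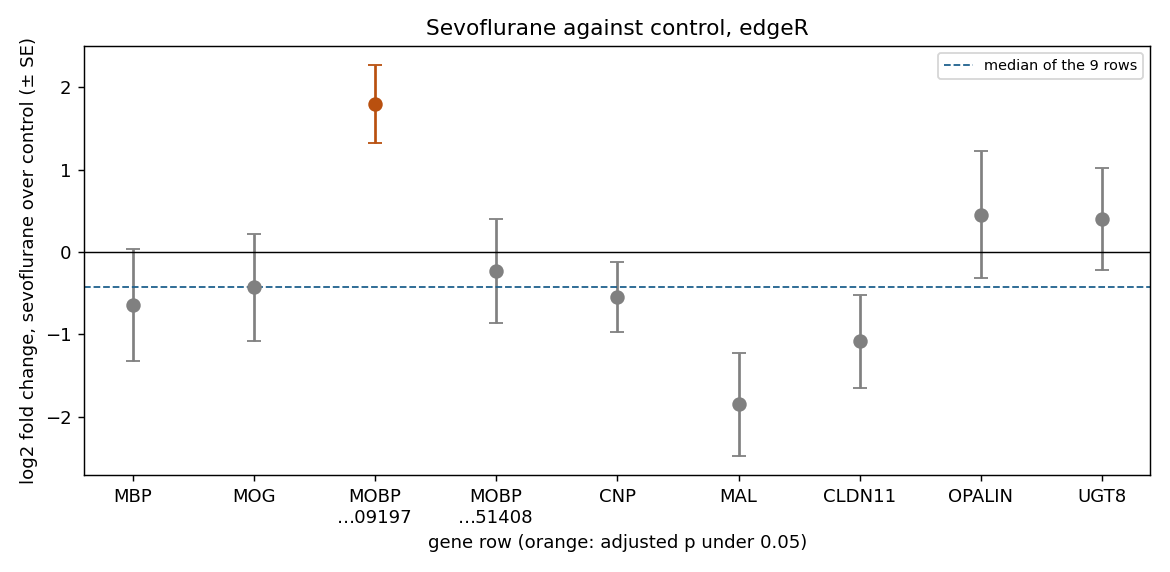
Log2 fold change of sevoflurane over control for the 9 rows, from edgeR's fit over 2 libraries per group, with bars of 1 standard error. One row, MOBP ENSMMUG00000009197 at 1.79, passed the threshold (orange); the dashed line is the median of the rows, −0.43.

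Compared within each sex, the change pointed in different directions in the female and in the male pair for several genes. The sevoflurane female was above the control female for 7 of 9 rows, and the sevoflurane male above the control male for 3. In 4 rows, MBP, MOG, MOBP ENSMMUG00000051408 and CNP, sevoflurane was above control in the female pair and below it in the male pair, which was the case for 7.13% of all tested genes. The rows were chosen with the gap between the controls known, which bears on this split, so the share is a description only. MBP was 2.05-fold higher in the sevoflurane female than in the control female (95% counting interval 2.00 to 2.10) and at a ratio of 0.363 in the males (0.356 to 0.369). MOG had ratios of 1.40 in females (1.25 to 1.58) and 0.585 in males (0.541 to 0.633). CNP was at 1.19 in females (1.12 to 1.26) and 0.481 in males (0.457 to 0.506). Each of these ratios compares 1 library with 1, and a test of sex against condition has no residual degrees of freedom in 4 libraries, so the difference between the sexes was not tested. By arithmetic it is set by the male over female ratios in the 2 groups. For MBP this log2 ratio was 2.35 in controls and −0.15 after sevoflurane, and for CNP 1.30 and −0.0067. In all 4 rows the gap between the controls was the larger. Which of the libraries accounts for the split was not tested.

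The MOBP ID ENSMMUG00000051408 had ratios of 2.01 in females (1.89 to 2.13) and 0.592 in males (0.568 to 0.618). The remaining rows did not part in this way. ENSMMUG00000009197 was at 4.48 in females (3.85 to 5.23) and 3.03 in males (2.69 to 3.41). MAL had ratios of 0.425 in females (0.330 to 0.543) and 0.233 in males (0.193 to 0.278), below 1 in each sex. CLDN11 was at 0.965 in females, with a counting interval of 0.885 to 1.05 that includes no change, and at 0.333 in males (0.311 to 0.357). OPALIN was at 2.55 in females (1.96 to 3.35) and at 1.14 in males (0.977 to 1.32), the latter again including no change. UGT8 was at 1.78 in females (1.57 to 2.03) and 1.18 in males (1.09 to 1.28).

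**Figure D3:**
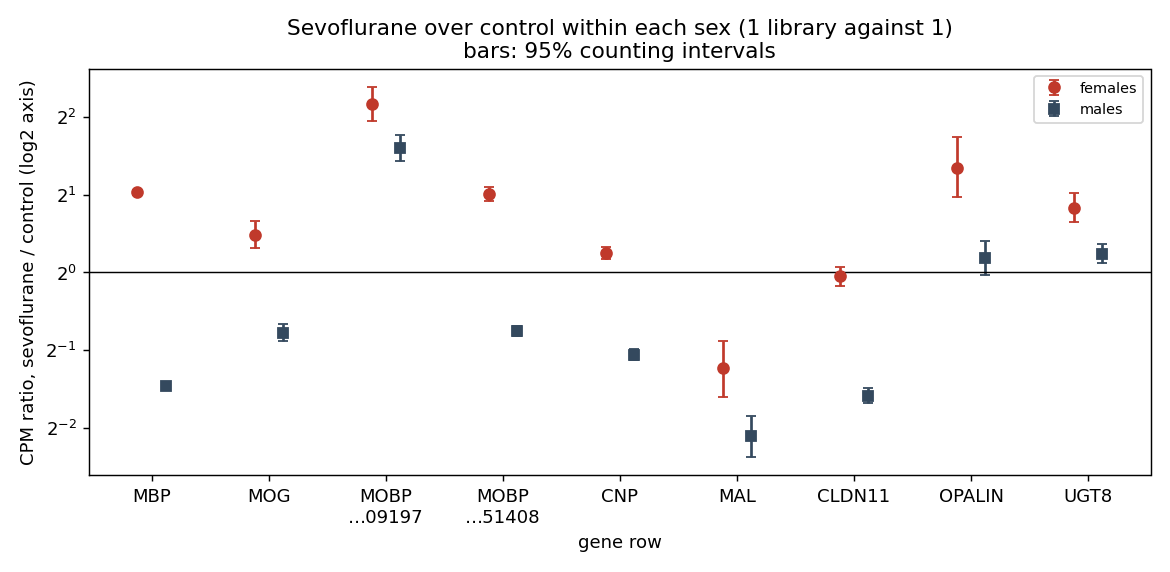
Ratio of CPM, sevoflurane over control, in females (circles) and in males (squares) for the 9 rows on a log2 axis, with 95% counting intervals; each point compares 1 library with 1. MBP lies at 2.05 in females and 0.363 in males, while MAL is below 1 and MOBP ENSMMUG00000009197 above 1 in both.

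The controls differed from each other by more than the sevoflurane animals did. The control male was above the control female for all 9 rows, from 2.35-fold (MOBP ENSMMUG00000009197) to 5.13-fold (OPALIN, 95% counting interval 3.99 to 6.68), with MBP at 5.09-fold (4.98 to 5.20). All 9 were over 2-fold higher, beside 6.65% of all tested genes, on a scale of CPM plus 0.5. The rows were chosen with this difference known, so the share is a description only. The control male also held the choroid plexus and ependymal RNA described above, whose part in these ratios was not tested. Between the sevoflurane animals the male was higher for 7 of 9 rows, by less: UGT8 was 2.24-fold higher (2.05 to 2.46), OPALIN 2.29-fold (1.93 to 2.71) and MOG 1.76-fold (1.60 to 1.93), while MBP was at a ratio of 0.902 (0.884 to 0.920).

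With condition held in the model, edgeR called 3 of 9 rows higher in males and 0 lower, beside 1.84% of all tested genes called in either direction, 0.798% higher and 1.04% lower. At an unadjusted p under 0.05 edgeR had 8 rows, 0 of them lower, and DESeq2 called 0 lower. The called rows were UGT8 (log2 male over female 1.46 ± 0.31 SE, adjusted p = 0.0210), MOG (1.44 ± 0.34, edgeR adjusted p = 0.0401) and OPALIN (1.76 ± 0.42, edgeR adjusted p = 0.0419). Each of them was at least 1.76-fold higher in the male of both groups, as was MAL, which was not called (1.29 ± 0.40, edgeR adjusted p = 0.144). MBP was at 1.10 ± 0.48 (edgeR adjusted p = 0.389). DESeq2 also called 3 rows, and edgeR without a filter on low counts called 5. The test has 1 residual degree of freedom and each sex is 1 animal per group, so sex cannot be told apart from differences between single animals or dissections, and no library can be left out of it. The rows were chosen with the difference between the controls already known.

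The make-up of the myelin RNA was then compared within libraries, by subtracting the mean log2 CPM of the 9 rows from each row. This quantity does not depend on how libraries are scaled to each other; it shows unequal change among the rows, not which of them changed. MAL lay at −1.61 (female) and −1.76 (male) in controls, and at −3.49 (female) and −3.23 (male) after sevoflurane. The MAL values of a group were thus close, although the control male held far more myelin RNA than the control female, and the groups were 1.68 log2 apart. MOBP ENSMMUG00000009197 lay at −1.67 and −2.31 in controls and at −0.16 and −0.07 after sevoflurane. It moved the opposite way to MAL, by 1.87 log2 between group means.

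CLDN11 lay at 0.66 (female) and 0.64 (male) in controls and at −0.04 and −0.31 after sevoflurane. OPALIN lay at −3.08 and −2.59 in controls and at −2.38 and −1.77 after sevoflurane. For both genes the groups stood apart in this measure, with CLDN11 lower and OPALIN higher relative to the other rows in each sevoflurane animal. UGT8, at −0.78 and −0.89 in controls and −0.60 and −0.01 after sevoflurane, also stood apart, with less room between the groups. In CPM the groups overlapped for CLDN11, OPALIN and UGT8, and no share over all genes was taken for the within-library measure. MBP ranged from 3.65 in the sevoflurane male to 4.48 in the control male, with overlapping groups. MOG and MOBP ENSMMUG00000051408 differed least between the group means, by −0.15 and 0.12. No test was run on these values; an exact permutation test of 2 libraries against 2 cannot go below p = 0.333.

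**Figure D4:**
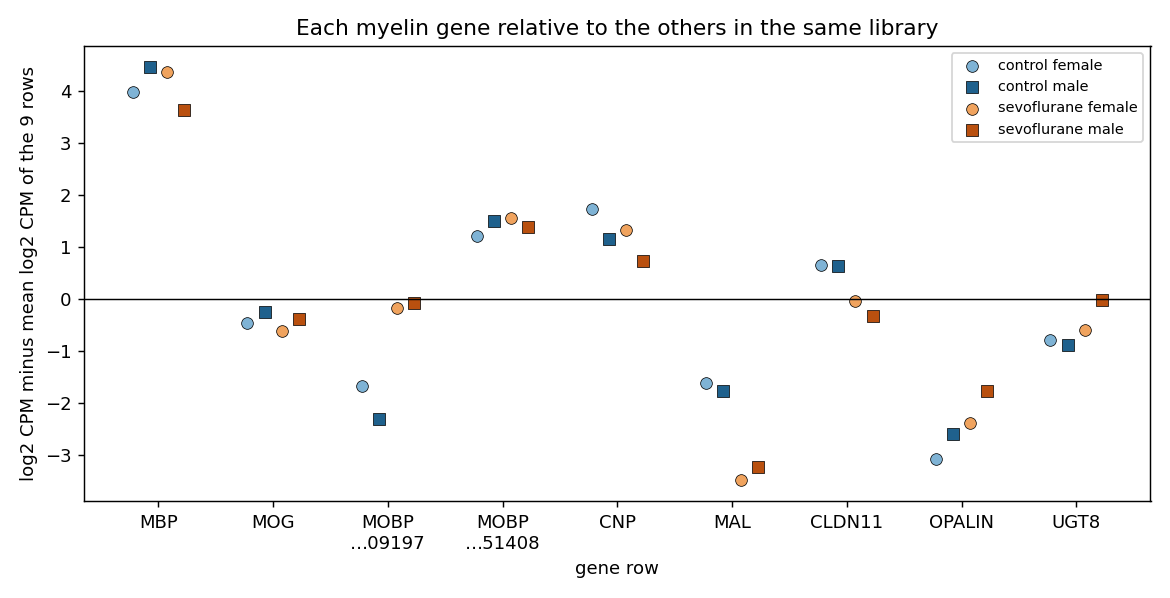
Log2 CPM of each row minus the mean log2 CPM of the 9 rows in the same library, with 1 point per library. MAL sits at −1.61 and −1.76 in the controls and between −3.49 and −3.23 after sevoflurane, and MOBP ENSMMUG00000009197 shows the opposite order.

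Other genes of mature oligodendrocytes were also highest in the control male in their sum. The 23 symbols of this list summed to 609 CPM (control female), 1843 (control male), 596 (sevoflurane female) and 666 (sevoflurane male). Both sevoflurane libraries thus lay near the control female. The control male also held the choroid plexus RNA described above. Its part in this sum, in the calls and in the median was not tested. Of 23 tested IDs, 0 were called higher and 6 lower by edgeR, beside 21.3% and 19.4% of all tested genes. Their median log2 fold change was −1.01. DESeq2 called 1 higher, as had edgeR at an unadjusted p under 0.05. The largest falls were those of PPP1R14A (−3.75 ± 0.63, edgeR adjusted p = 0.00619), an inhibitor of myosin phosphatase, and NKX6-2 (−2.41 ± 0.77, adjusted p = 0.0474), a homeobox factor of maturing oligodendrocytes. PPP1R14A was at −2.65 with the control male left out and at −4.36 with the control female left out. NKX6-2 lost its call without the control male (−0.95, edgeR adjusted p = 0.357), without either sevoflurane library (0.170 and 0.135) and with library totals (0.0632), and was at −3.11 with the control female left out. Without the control male library the median of the list was 0.15, with 3 called higher and 2 lower. Without the control female 11 were called lower, and without either sevoflurane library 1 was.

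Enzymes that make or break down galactolipids and sphingolipids, the pathway of UGT8, were called about as often as genes at large. Of 17 tested, 4 rose and 3 fell, beside 21.3% and 19.4% of all tested genes, and the median log2 fold change was 0.44. GALC, the lysosomal enzyme that degrades galactosylceramide, rose from 4.45 ± 0.49 to 31.4 ± 8.38 CPM (SD, n = 2; log2 fold change 2.82 ± 0.38, edgeR adjusted p = 0.00356). SPTLC2, a subunit of the enzyme that starts sphingolipid synthesis, rose by 2.17 ± 0.40 (adjusted p = 0.00827). GAL3ST1, which adds the sulfate that turns galactosylceramide into sulfatide, fell by 2.19 ± 0.60, and ARSA, which removes it, fell by 1.43 ± 0.40. GAL3ST1 was at −1.26 without the control male, and its call was lost there and without either sevoflurane library (edgeR adjusted p = 0.108 to 0.160), while ARSA lost its call without either male library and with library totals (0.0537 to 0.121). None of the list was called lower without either male library, 1 was without the sevoflurane female or with library totals, and 2 were called higher without the sevoflurane male, where the median was −0.03.

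Genes of the node, paranode and juxtaparanode, many of them made by neurons, were mostly called higher. Of 20 tested, 12 rose and 1 fell, beside 21.3% and 19.4% of all tested genes, and the median log2 fold change was 1.91. Another class of transcripts moved with condition in the same libraries: of 21 short housekeeping messenger RNAs, a list of proteasome core and Sm spliceosome subunits, 16 were called lower (median log2 fold change −1.41). The part of such a shift in the values of the nodal genes, the myelin rows and the lists given before and after was not tested. Transcript length was not measured. ADAM22, a juxtaparanodal and synaptic membrane protein, rose from 1.36 ± 0.66 to 62.1 ± 13.4 CPM (SD, n = 2; log2 fold change 5.48 ± 0.48, edgeR adjusted p = 0.00165). Without the control female ADAM22 was at 6.14. ANK2, an ankyrin of the axonal membrane skeleton, rose by 5.19 ± 0.39. CADM4, an adhesion protein of myelinating glia, fell by 1.01 ± 0.25, a call lost with library totals, without either control library and without the sevoflurane male (edgeR adjusted p = 0.0515 to 0.0840). Within the same libraries the myelin rows themselves had a median of −0.43.

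Of 12 tested regulators of myelin transcription and myelin RNA, 4 rose and 3 fell (median −0.49), beside the same 21.3% and 19.4% of all tested genes. KIF1B, a kinesin known for carrying MBP messenger RNA, rose from 48.4 ± 0.06 to 500 ± 31.6 CPM (SD, n = 2; log2 fold change 3.37 ± 0.26, edgeR adjusted p = 0.00141). QKI, an RNA-binding protein that stabilises myelin messenger RNAs, rose by 3.24 ± 0.31. OLIG2, a factor of the whole oligodendrocyte lineage, fell by 1.74 ± 0.33, and NKX6-2 fell as given above. MYRF, the transcription factor that switches on myelin genes, was not called (−0.53 ± 0.61, edgeR adjusted p = 0.514), and it was at 0.71 without the control male and at −1.17 without the control female.

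Marker lists from earlier in the lineage, precursors and newly formed oligodendrocytes, differed from each other. Precursor markers summed to 288 (control female), 313 (control male), 719 (sevoflurane female) and 940 (sevoflurane male) CPM. Over 10 tested the median log2 fold change was 1.40. Among them 6 rose and 1, NKX2-2 (−1.44 ± 0.42), fell, beside 21.3% and 19.4% of all tested genes. The fall was not called with library totals or without any 1 library. PTPRZ1, a receptor phosphatase of precursors and astrocytes, rose by 1.54 ± 0.29 (edgeR adjusted p = 0.00891). Of 8 markers of newly formed oligodendrocytes 2 rose and 0 fell by edgeR (2 were lower at an unadjusted p under 0.05, and DESeq2 called 0 lower). Their median was −0.52, and 0.15 without the control male, and their sums ran from 560 to 793 CPM. With edgeR 1 fell with sex as a block or without the control female, and 1 rose without either control or without the sevoflurane male. RAP2A, the most abundant of them and also made by neurons, rose by 0.97 ± 0.30, a call lost without either control and without the sevoflurane male (edgeR adjusted p = 0.0842 to 0.172). The controls lay closer to each other in both of these sums than in the myelin rows. The newly formed sum held much RAP2A, at 191 (control female) and 173 CPM (control male). Its markers BCAS1, at 43.5 and 189 CPM in that order, and GPR17, at 6.39 and 22.6, were higher in the control male, like the myelin rows. Over the 8 markers the median log2 ratio of control male over control female was 0.18.

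Markers of other cells were set beside the myelin rows. The 9 matched Schwann cell genes summed to 92.0 to 141 CPM, with 1 or 2 of them at 0 in each library, and PMP22, also made in other tissues, was the most abundant. The neuron list summed to 7847 to 10046 CPM (SNAP25 highest) and the astrocyte list to 5402 to 7280 CPM (GLUL highest). The microglial list, with CSF1R the most abundant, summed to 457 and 502 CPM in controls and 193 and 257 after sevoflurane (7 of 12 called lower, 1 higher, the latter not without either sevoflurane library). The endothelial list ran from 207 to 353 CPM, with SLC2A1 highest. RSPH1 was the highest ependymal gene. Calls in these lists stand beside 21.3% higher and 19.4% lower among all tested genes. Of the tested genes of these lists edgeR called 2 higher and 1 lower of 12 neuronal, 3 and 4 of 12 astrocytic, 1 and 2 of 7 endothelial and 0 and 2 of 7 Schwann cell genes, as well as 0 and 3 of 8 choroid plexus, 0 and 0 of 5 ependymal and 3 and 0 of 12 amygdala genes. DESeq2 called 1 Schwann cell gene and 0 choroid plexus genes higher, and 3 ependymal genes and 1 amygdala gene lower; at an unadjusted p under 0.05 edgeR had 1, 0, 4 and 1. Without the control female 9 choroid plexus, 5 ependymal, 2 astrocytic, 0 neuronal, 0 Schwann cell and 1 amygdala genes were called lower. Without either sevoflurane library in turn 2 astrocytic, 1 choroid plexus and 0 Schwann cell genes were called lower, as was 1 endothelial gene without the sevoflurane male. Without the control male 5 amygdala genes, 1 choroid plexus gene and 1 Schwann cell gene were called higher, and 1 Schwann cell gene and 1 amygdala gene lower. Without the sevoflurane female 1 Schwann cell gene was called higher. With library totals 5 astrocytic genes were called higher and 2 lower, and 0 neuronal genes were called lower.

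**Figure D5:**
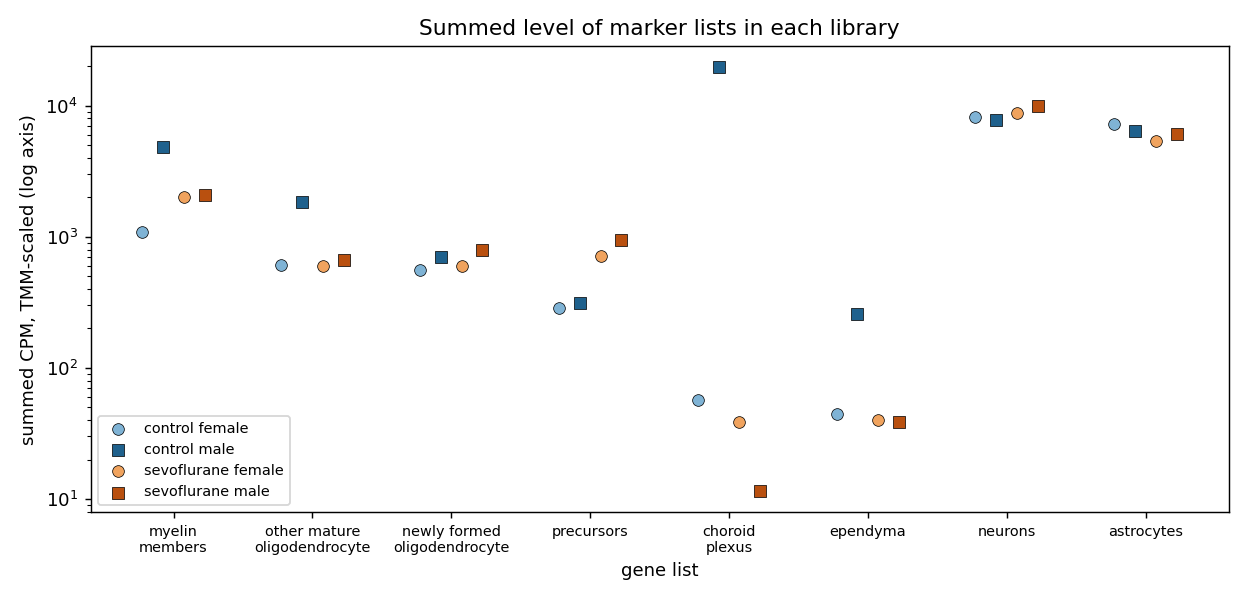
Summed TMM-scaled CPM (log axis) of 8 gene lists, with 1 point per library. The control male stands at 4856 CPM for the myelin rows and 19711 for choroid plexus genes, while the precursor list is higher in both sevoflurane libraries.

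The genes whose pattern over the 4 libraries was most like that of the myelin rows were ranked by the distance between centred log2 CPM profiles, among 11304 genes with a symbol and at least 5 CPM on average. The nearest were ENTPD3, a nucleotide-degrading ectoenzyme (distance 0.157), GYG2, a glycogen primer (0.180), DNAH9, a dynein of motile cilia (0.225), VWA3A (0.260) and MYRF (0.266). MYRF had 15.4 (control female), 59.0 (control male), 20.95 (sevoflurane female) and 30.4 (sevoflurane male) CPM. DNAH9, a marker on the ependymal list, stood at 9.46, 34.6, 13.6 and 18.4 CPM in that order. Of 20 other mature oligodendrocyte genes in the ranking, 6 were among the nearest 100. A profile of 4 libraries separates few patterns, and a high value in the control male is shared by the choroid plexus and ependymal genes, so this ranking describes likeness only.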

How the data were processed

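RNA-seq libraries of macaque amygdala were analysed, 2 controls and 2 sevoflurane. The table the authors deposited gives raw read counts for each gene, not normalized. Reads were aligned with HISAT2, per the submitters' processing notes; its version, the counter, the build, the annotation and the strand setting were not stated in the labels. Symbols came from a gene ID table that named 24173 of 35395 IDs. Groups came from the treatment label; replicate 1 (female) and 2 (male) are names only. The labels do not state separate animals beyond sex, so p-values measure the spread between these libraries.

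Genes were filtered with filterByExpr (minimum count 10), scaled with TMM and tested with edgeR 4.0.16 (quasi-likelihood, condition only, 2 residual degrees of freedom; R 4.3.3), with adjustment over all 15417 genes, after a check on simulated data. Standard errors were derived from the F statistic. With library totals in place of TMM the median log2 fold change of all genes was 0.24, against 0.0040. Alternatives were DESeq2 1.42.0, its size factors, library totals, other filters, sex as a block and leaving out each library. The myelin genes and the 15 other lists were chosen with earlier results of these data known. Named genes were all members, up to 2 called rising and 2 falling genes per pathway list, the most abundant gene per cell type list, and the 5 nearest in pattern; FOXP2, NKX2-2 and genes named for a single value were added after their values were seen. A further gene of the mature oligodendrocyte list is not reported here and was left out of that list.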

Additional observations from a re-analysis of the deposited data

Results flagged for a closer look

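For 4 rows the sevoflurane over control change pointed up in the female pair and down in the male pair. The female minus male difference was 2.50 log2 for MBP, 1.76 for MOBP ENSMMUG00000051408, 1.31 for CNP and 1.26 for MOG. Each sex holds 1 library per condition, and the difference was not tested. By arithmetic this difference is the log2 male over female ratio in controls minus that after sevoflurane. These ratios were 2.35 and −0.15 for MBP, and 2.16 and 0.40 for MOBP ENSMMUG00000051408. They were 1.30 and −0.0067 for CNP, and 2.07 and 0.81 for MOG.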

How the results depend on the processing

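Of 90 log2 fold changes of the 9 rows under 10 other settings, 69 kept their direction and side of the threshold, 11 changed direction, 9 newly passed the threshold and 1 no longer passed it. The causes were not tested. The count of genes called was 3469 to 5800 without any 1 library (higher 1967 to 3029, lower 1502 to 2771), the lowest without the sevoflurane male. Without any 1 library 0 to 2 myelin rows were called higher and 0 to 3 lower, and their median log2 fold change ran from −1.03 to 0.93. Leaving out libraries one at a time, log2 fold changes ran from −1.36 to 0.93 for MBP, −1.10 to 0.92 for MOG, −0.92 to 1.19 for MOBP ENSMMUG00000051408, −1.03 to 0.22 for CNP, −1.71 to 0.079 for CLDN11, −0.26 to 2.04 for OPALIN and −0.29 to 1.51 for UGT8, so that each of these 7 changed sign. MOBP ENSMMUG00000051408 was also at 0.017 with library totals and at 0.12 with sex as a replicate block. Rows called lower numbered 2 with no filter on low counts, and 1 with a filter at 5 CPM, with sex as a replicate block and by DESeq2; with the MOBP IDs summed 0 were called higher. Male against female, with no filter 603 genes and 5 rows were called. The sevoflurane mean of the summed rows was 2224 CPM with library totals and 717 without MBP. The labels give no replicate numbers, so the block holds sex only. Reads on a row were at least 78 in each library, so the spread between libraries, not depth, limits these values. Comparisons by protein length and promoter motif were not run.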
